A study of Mus musculus with 14 samples.

Results

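The stage change of male germ cells without the DNA methyltransferase DNMT3C was described from 7 of the 14 RNA sequencing libraries of the series, 4 of spermatocytes (Spc) and 3 of spermatogonia (Spg) labelled Dnmt3C KO/KO (KO below). The 7 libraries were taken by their labels, and no measured value was used to choose them. The other 7 libraries, 4 of Spc and 3 of Spg from wild-type littermates (WT), served to show where the KO stage change differed from the normal one. All mice were on a C57Bl6/J background. Spg were sorted at postnatal day 14 as live cells that carried EpCAM and lacked β2-microglobulin, and Spc from mice older than 20 days as live cells chosen by Hoechst staining of DNA, with no surface marker. Stage, age and sort were therefore the same split of the libraries and cannot be told apart. The KO line arrests at pachytene, and the WT Spc sort holds later cells as well, so that WT is a reference for a complete meiosis and not for cells of a matched stage.

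Dnmt3c is a rodent gene that arose as a copy of Dnmt3b, and its product methylates the promoters of young retrotransposons in fetal male germ cells. After birth, spermatogonia divide, respond to retinoic acid and enter meiosis, where Spc build the chromosome axis and synaptonemal complex, break and repair their DNA, and silence the X and Y chromosomes at pachytene. A large second wave of transcription then switches on genes of the later spermatocyte and of the sperm cell, among them those of the pachytene piRNA pathway.

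Total counts ran from 46676196 to 49332778 in KO Spg, from 44883293 to 47198914 in KO Spc, and from 40555726 to 53323651 in the WT libraries. Levels are CPM, a gene's count over the TMM-scaled library total times 1e+06, and they compare 1 gene between libraries and not different genes. A feature was called when its adjusted p was under 0.01 (edgeR's quasi-likelihood test, two-sided, with Benjamini-Hochberg adjustment across every gene and TE subfamily in the fit), and "rose" and "fell" are used only of calls. Pearson's r of log2 CPM between a KO Spg and a KO Spc library had a median of 0.929 and ran from 0.895 to 0.962, whereas the median between KO Spc and WT Spc libraries was 0.706. The libraries of KO Spc were thus closer to KO Spg than to the WT libraries of their own label, and KO Spc below stands for the libraries labelled so. Replicates 1 and 4 were the most alike Spc libraries in either genotype (r = 0.987 in KO and 0.989 in WT), with a chi-square per feature of 11.7 and 15.5 beside 129.6 to 299 for the other Spc pairs of a genotype. Their counts differed beyond sampling noise, which does not tell whether they are separate animals, and the sources used here do not say so. All 4 were used, and counts of calls are also given below with replicates 1 and 4 summed. WT libraries also stood apart: the summed level of 18 abundant pachytene genes was 1127, 2868 and 826 CPM in WT Spg, highest in replicate 2, and WT Spc replicate 3 held the lowest sum of these genes and the highest X-linked share of its group.

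Dnmt3c (chr2:153696652-153729907) did not separate the genotypes. Its level was 1.99, 1.02 and 1.19 CPM in KO Spg and 1.11, 1.00, 0.991 and 1.16 CPM in KO Spc, beside 1.27 ± 0.288 CPM in WT Spg and 0.630 ± 0.278 CPM in WT Spc (mean ± SD, n = 3 and n = 4). All values were low and overlapped between KO and WT Spg, and which part of the gene the allele lacks is not given in the sources used here. The retrotransposon L1Md_A, a target of DNMT3C, did separate them, at 1956, 2244 and 1149.9 CPM in KO Spg against 160.0 ± 19.0 CPM in WT Spg.

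Between KO Spg and KO Spc 707 of 24340 genes were called (2.9%), 698 of them higher in KO Spc (2.87%) and 9 lower (0.037%). At an unadjusted p under 0.05 there were 5940 genes (24.4%), 4341 higher (17.8%) and 1599 lower (6.57%), and 6437 genes (26.4%) had no overlap between the KO Spg and KO Spc libraries. In WT the same comparison called 7094 genes higher (29.1%) and 5629 lower (23.1%), a split that turned to 4528 and 8687 when libraries were scaled by their totals in place of TMM factors, with the median log2 change over all genes moving from 0.02 to -0.76. A test of the difference between both stage changes called 2651 genes with a more positive change in KO (10.9%) and 3561 with a more negative one (14.6%). With library totals that split turned to 4139 and 1699 as well, and the median log2 difference over all genes moved from 0.20 to 0.90, while the median KO stage change moved only from 0.02 to -0.06. Of the 698 genes that rose in KO, 217 also rose in WT, which is 31.1% of the KO set and 3.06% of the WT set, 14 fell in WT and 467 were not called there. The count of calls was 332, all of them higher, with Spc replicates 1 and 4 of each genotype summed. It also depended on single libraries: it was 193, 132 and 95 without KO Spg replicate 1, 2 and 3, and 368 and 364 without KO Spc replicate 1 and 4. The count of called differences, 6212 in all (25.5%), was 4046 and 3718 without KO Spg replicate 2 and 3, and 3915 and 4138 without WT Spg replicate 1 and 3.

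Genes of spermatogonia were still read in KO Spc, at levels that were mostly lower than in KO Spg without reaching a call. None of 44 tested genes of undifferentiated spermatogonia, differentiating spermatogonia and meiotic entry was called in KO (edgeR; 2 higher and 15 lower at an unadjusted p under 0.05, and 0 higher and 5 lower by DESeq2), whereas 34 of them fell in WT. Over all 24340 genes the falls were 9 by edgeR in KO (0.037%), 1599 at an unadjusted p under 0.05 (6.57%), 244 by DESeq2 and 5629 in WT (23.1%), so that a list of this size with no call by edgeR is near the share of all genes. The median log2 change of the 22 undifferentiated genes was -1.35 in KO and -3.10 in WT, beside 0.02 over all genes in either genotype. The 12 differentiating genes had medians of -0.84 and -3.11, and the 10 genes of meiotic entry -0.39 and -2.31. In bulk libraries fewer cells of a type and less RNA per cell cannot be told apart.

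Zbtb16, the PLZF factor of spermatogonial stem cells, measured 113, 57.4 and 104 CPM in KO Spg and 27.7, 28.2, 51.7 and 26.6 CPM in KO Spc. All 4 KO Spc libraries lay under the KO Spg libraries, but the change was not called (log2 -1.44, SE 0.64, adjusted p = 0.185). WT fell from 86.9 ± 14 to 4.87 ± 6.15 CPM. Kit, the receptor that marks differentiation, measured 281, 292 and 324 CPM in KO Spg and 81.2, 170.0, 206 and 77.3 CPM in KO Spc (adjusted p = 0.274). Again the groups did not overlap, and replicates 1 and 4 held the lowest levels. Stra8, which retinoic acid induces at meiotic entry, was still read at 54.0, 152, 158 and 55.7 CPM in KO Spc after 271, 184 and 214 CPM in KO Spg (adjusted p = 0.354), while WT Spc had 13.2 ± 13.7 CPM.

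Gfra1, the GDNF receptor of stem cells, missed the threshold with the lowest p of the key members of these lists (40.0, 9.10 and 34.4 to 3.54, 4.01, 10.3 and 2.30 CPM, log2 -2.47, adjusted p = 0.0120). The groups overlapped, since KO Spg replicate 2 lay below KO Spc replicate 3. It was called without KO Spg replicate 2 or without KO Spc replicate 3, the library with the highest level in its group. Prdm9, the methyltransferase that places meiotic breaks, differed between the genotypes: KO Spc held 56.4, 69.9, 56.4 and 63.0 CPM against 70.5, 96.1 and 54.8 CPM in KO Spg, WT fell from 55.7 ± 5.6 to 6.25 ± 5.78 CPM, and the difference of both changes was called (log2 2.89, adjusted p = 0.00897). Also called were the opposite differences of Id4 (log2 -3.36) and Dmrtb1 (log2 -3.60), which rose in WT Spc. Dmrtb1, a regulator of the switch from mitosis to meiosis, was at 98.6, 217 and 244 CPM in KO Spg and 51.6, 191, 110.3 and 53 CPM in KO Spc, with no call.

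A few meiotic genes rose in KO. Of 125 tested genes of the meiotic and spermatid lists, 7 rose in KO (5.6%, beside 2.87% of all genes tested) and 77 rose in WT (61.6%, beside 29.1%). At an unadjusted p under 0.05, 37 were higher and 6 lower in KO, and DESeq2 called 22 higher and 1 lower. With Spc replicates 1 and 4 of each genotype summed, 1 of the 7 calls was left, that of Brdt. The count was 0 without any 1 KO Spg library, 2, 2 and 1 without KO Spc replicates 1, 3 and 4, 4 without WT Spg replicate 1, 3 without WT Spc replicate 2, and at most 10, without KO Spc replicate 2. These 7 were Brdt, Kctd19, Sycp2, Hormad1, Cntd1, 1700102P08Rik (Spo16) and Adam2. All 7 also rose in WT, and for none of them was the difference between the stage changes called. The stage change differed by test for 51 genes of these lists, 48 smaller and 3 larger in KO, beside 14.6% and 10.9% of all genes. These are calls with TMM factors, and the split over all genes turned with library totals, as given above.

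Among 11 genes of the synaptonemal complex and of HORMA domain proteins, 2 rose in KO, 4 rose and 2 fell in WT. Hormad1 (chr3:95559677-95587671), which coats unsynapsed axes, measured 159, 127 and 99.8 CPM in KO Spg and 396, 206, 422 and 466 CPM in KO Spc (log2 1.54, SE 0.30, adjusted p = 0.00686). Every KO Spc library lay above every KO Spg library, with replicate 2 the lowest. WT Spc reached 351 ± 101 CPM, and the difference of the changes was log2 0.48 (adjusted p = 0.355). Sycp2, a protein of the lateral element, went from 221, 308 and 149 to 549, 360.1, 582 and 591 CPM (log2 1.2, adjusted p = 0.00826). Its partner Sycp3 went from 277, 196 and 159 to 491, 299.8, 701 and 549 CPM without a call (log2 1.28, SE 0.29, adjusted p = 0.0164), although the groups did not overlap, and was called without KO Spc replicate 2. The central element gene Syce1 was not called in KO (mean 94.9 and 75.9 CPM) and rose in WT, and its difference was called (log2 -2.98, adjusted p = 0.000159). The call of Hormad1 was lost without any one of KO Spg replicates 1, 2 and 3, WT Spg replicate 1, KO Spc replicates 1, 3 and 4 or WT Spc replicate 2 (adjusted p at most 0.0701), and that of Sycp2 held only without KO Spc replicate 2 or WT Spc replicate 3 (adjusted p elsewhere at most 0.0754). Both calls were also lost with library totals, with the 7 KO libraries fitted alone and with Spc replicates 1 and 4 summed, and that of Sycp2 with TMM factors over genes alone and with genes absent from 1 table entered as 0.

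Break formation, strand exchange and cohesin genes were not called in KO (edgeR). With 2.9% of all genes called in KO, no call in lists of this size is near the share of all genes. At an unadjusted p under 0.05, 17.8% of all genes were higher and 6.57% lower in KO. In WT 29.1% of all genes rose and 23.1% fell. Of 20 genes of break formation and strand exchange 0 were called (6 higher and 3 lower at an unadjusted p under 0.05; 5 higher and 1 lower by DESeq2), and in WT 6 rose and 7 fell. Meiob, a single-strand binding protein of meiotic recombination, came closest, with 49.8, 25.2 and 20.4 CPM in KO Spg and 165, 80.4, 158 and 184 CPM in KO Spc (log2 2.21, SE 0.48, adjusted p = 0.0129). It was called without KO Spc replicate 2 or WT Spc replicate 3. In WT its change from 32.5 ± 11.9 to 36.9 ± 23.7 CPM was not called. Spo11, which cuts the DNA, had 16.9, 13.0 and 10.0 and 32.6, 20.6, 36.3 and 40.8 CPM in KO (adjusted p = 0.0267) and 138 ± 11.8 CPM in WT Spc. The recombinase gene Dmc1 had 101, 97.7 and 72.2 CPM in KO Spg and 116, 114, 122 and 128 CPM in KO Spc, without overlap and without a call, and fell in WT to 16.8 ± 18.2 CPM. For Psmc3ip, Hsf2bp and 4930432K21Rik (Brme1) the change was smaller in KO by test (log2 differences -2.42, -2.19 and -2.49). Of 4 cohesin genes 0 were called in KO by edgeR or DESeq2, and 0 at an unadjusted p under 0.05. Stag3, the cohesin subunit of meiosis, was at 375, 536 and 425 and 308, 450.1, 357 and 321 CPM in KO and rose in WT to 1081 ± 258 CPM (difference log2 -1.55, adjusted p = 0.00171).

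Crossover genes gave 2 calls of 13 in KO, beside 4 rises and 1 fall in WT. Cntd1, a cyclin-like protein that matures crossovers, measured 18, 20.5 and 16.9 CPM in KO Spg and 85.4, 43.5, 91.1 and 99.2 CPM in KO Spc (log2 2.11, SE 0.39, adjusted p = 0.00486). 1700102P08Rik, the mouse SPO16 gene, went from 8.32, 3.13 and 4.10 to 35.3, 18.9, 37.2 and 37.9 CPM (log2 2.64, adjusted p = 0.00602). Neither pair of groups overlapped, and replicate 2 was the lowest KO Spc library for both. In WT Spc they stood at 389 ± 14.4 and 429 ± 72.0 CPM, and their differences were not called (adjusted p = 0.707 and 0.327). Mlh3, which resolves crossovers, measured 38.3, 42.4 and 40.8 and 38.6, 30.8, 41.5 and 41.9 CPM in KO, was not called there and rose in WT to 169.7 ± 26.9 CPM (difference log2 -1.67, adjusted p = 0.000348). Telomere attachment genes were called in 0 of 6 cases in KO (edgeR; 1 higher at an unadjusted p under 0.05, 0 by DESeq2), which is near the 2.9% of all genes called there. In WT 6 of 6 rose, beside 29.1% of all genes. Both crossover calls were lost without any 1 KO Spg library or without KO Spc replicate 1, 3 or 4, and 1700102P08Rik also without WT Spc replicate 2 (adjusted p at most 0.0522 and 0.0626).

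Pachytene regulators gave 2 calls of 16 in KO, Brdt and Kctd19. In WT 11 of the 16 rose and 4 fell, and by the test of the difference 7 had a smaller and 2 a larger change in KO. Brdt (chr5:107331159-107387058), a testis bromodomain protein that reads acetylated histones, measured 61.6, 74.1 and 55.7 CPM in KO Spg and 309.7, 146, 303 and 359 CPM in KO Spc (log2 2.13, SE 0.31, adjusted p = 0.00113). Each KO Spc library exceeded each KO Spg library, the lowest being replicate 2. WT Spc held 632 ± 83.1 CPM, and the difference was log2 -0.43 (adjusted p = 0.410). Kctd19, part of a deacetylase complex needed for meiotic exit, went from 19.1, 16.3 and 11.4 to 139, 61.0, 144 and 159 CPM (log2 3.01, SE 0.51, adjusted p = 0.00273), against 1174 ± 282 CPM in WT Spc. The calls of Brdt and Kctd19 were lost without any 1 KO Spg library (adjusted p at most 0.0181 and 0.0351), and that of Kctd19 also without KO Spc replicate 4.

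Other regulators were not called in KO. Ccna1 (chr3:55045469-55055501), cyclin A1 of late Spc, measured 1.23, 0.493 and 0.763 CPM in KO Spg and 1.29, 0.788, 1.33 and 1.14 CPM in KO Spc. These groups overlapped around 1 CPM, while WT rose from 1.84 ± 1.39 to 192 ± 147 CPM (difference log2 -6.25, SE 0.97, adjusted p = 0.000430). Tcfl5, a transcription factor of pachytene, was at 85.8, 81.7 and 94.4 and 54.8, 73.3, 84.2 and 60.0 CPM in KO and at 827 ± 219 CPM in WT Spc (difference log2 -3.23, adjusted p = 0.000138). Rfx2, Crem, Ovol1, Aurkc and Zfp541 also had smaller changes in KO by test. Mybl1, the A-MYB factor that drives pachytene genes, gave 61.0, 40.8 and 23.3 CPM in KO Spg and 169, 63.7, 133 and 197 CPM in KO Spc, with no overlap and no call (log2 1.76, adjusted p = 0.0166), and was called without KO Spc replicate 2.

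Promoters are printed for Hormad1 and Brdt, which rose in both genotypes, and for Ccna1, which rose in WT and was not called in KO, since these members differ in whether they were called in KO. The sequences are from RefSeq on GRCm38, read 5′ to 3′ on the gene's strand and ending at or before the transcript start. Bases that lie in an annotated exon were left out. Capitals mark letters of the motifs searched on both strands: MYB core AACTGNC, STRA8-MEIOSIN core CCTCAG, E2F core GGCGGGA, E-box CACGTG, CRE core TGACGT, RFX half-site GTTGCCA and NRF1 core GCATGCG.
Hormad1, chr3:95559427-95559676, plus strand: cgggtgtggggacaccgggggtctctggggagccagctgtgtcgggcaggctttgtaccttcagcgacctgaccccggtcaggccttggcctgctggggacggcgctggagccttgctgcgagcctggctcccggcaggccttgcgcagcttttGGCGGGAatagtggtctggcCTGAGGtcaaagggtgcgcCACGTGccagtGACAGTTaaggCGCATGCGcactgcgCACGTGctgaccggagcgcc
Brdt, chr5:107330944-107331158, plus strand: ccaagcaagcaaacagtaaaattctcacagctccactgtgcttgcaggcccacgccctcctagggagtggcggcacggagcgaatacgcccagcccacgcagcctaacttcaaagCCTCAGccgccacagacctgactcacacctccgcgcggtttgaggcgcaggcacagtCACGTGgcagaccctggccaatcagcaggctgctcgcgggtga
Ccna1, chr3:55055056-55055251, minus strand: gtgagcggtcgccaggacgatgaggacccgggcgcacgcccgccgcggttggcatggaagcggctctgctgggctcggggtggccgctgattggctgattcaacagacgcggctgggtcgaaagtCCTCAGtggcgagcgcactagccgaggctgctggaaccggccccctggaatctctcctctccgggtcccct

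Hormad1, for which the table holds 2 promoters and the first is shown, had a MYB core 46 bases before the start, a STRA8-MEIOSIN core at 76, an E2F core at 96, E-boxes at 57 and 20, and 2 overlapping NRF1 cores, 1 on each strand, at 35 and 34. Its MYB and STRA8-MEIOSIN cores lie on the strand opposite to the gene. Brdt held a STRA8-MEIOSIN core 135 bases and an E-box 78 bases before the start. Ccna1 held a STRA8-MEIOSIN core at 71. The Ccna1 stretch lies before the RefSeq start and inside the annotated span of the gene, since other transcripts of Ccna1 start further upstream.

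**Figure D1:**
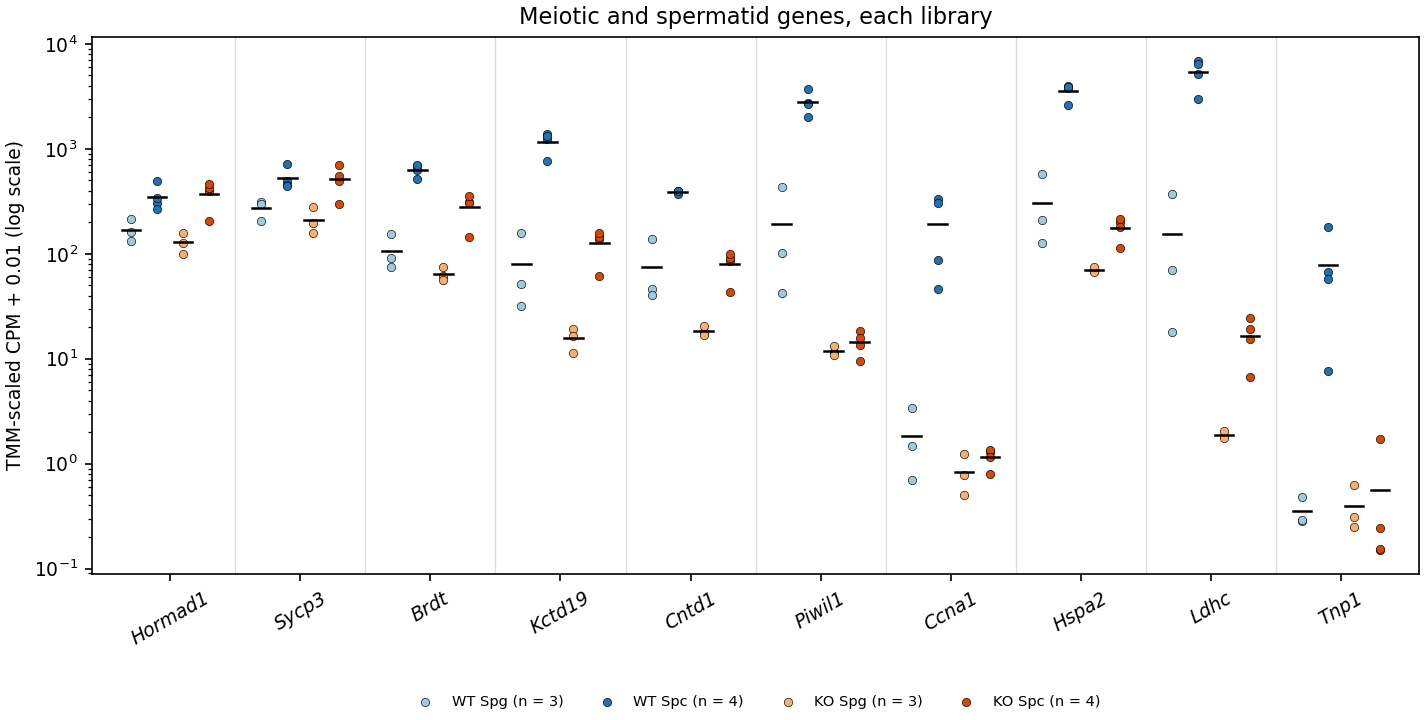
Each point is 1 library, with TMM-scaled CPM plus 0.01 on a log axis for 10 genes in WT Spg (n = 3), WT Spc (n = 4), KO Spg (n = 3) and KO Spc (n = 4); bars are group means. From Hormad1 to Cntd1 the KO Spc points lie above the KO Spg points, while Piwil1, Ccna1 and Tnp1 overlap between the KO groups and stand far higher in WT Spc.

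Most genes of the piRNA pathway rose in WT, and none was called in KO. Of the 20 listed genes 0 were called in KO (edgeR; 0 higher and 3 lower at an unadjusted p under 0.05, 0 by DESeq2), 13 rose and 1 fell in WT, and 12 had a smaller change in KO. Over all genes 2.9% were called in KO, so that 0 of 20 is near the share of all genes. In WT 29.1% of all genes rose and 23.1% fell, and 14.6% had a smaller change in KO. The list's median log2 change was -0.12 in KO and 2.06 in WT. Piwil1 (chr5:128702524-128755474), the MIWI protein that carries pachytene piRNAs, measured 11.7, 10.8 and 13.2 CPM in KO Spg and 13.6, 9.51, 18.4 and 15.7 CPM in KO Spc. These values overlapped, and WT rose from 192 ± 209 to 2773 ± 694 CPM (difference log2 -3.59, SE 0.77, adjusted p = 0.00287). Tdrd5, a Tudor domain protein of the same pathway, had 46.9, 31.7 and 50.7 and 50.1, 34.1, 62.7 and 55.3 CPM in KO, and its difference was called too (log2 -2.54, adjusted p = 0.00119). Piwil2 and Mov10l1 were not called in KO (421, 325 and 394 and 395, 281, 542 and 445 CPM for Piwil2), nor was their difference from WT.

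Abundant pachytene transcripts reached only a small part of their WT level. Of 18 such genes 1 rose in KO and 15 rose in WT, and 8 had a smaller change in KO. Their summed level was 521, 638 and 589 CPM in KO Spg and 827, 718, 798 and 893 CPM in KO Spc, beside 14935 to 27791 CPM in WT Spc. The sums in KO Spc lay above all 3 in KO Spg. Ldhc, the lactate dehydrogenase of germ cells, measured 1.82, 1.74 and 2.04 CPM in KO Spg and 19.4, 6.68, 15.4 and 24.4 CPM in KO Spc (log2 3.14, SE 0.78, adjusted p = 0.0252), against 5364 ± 1716 CPM in WT Spc. For Hspa2, a testis heat shock protein, the groups of 68.3, 67.6 and 74.1 and 199, 113, 178 and 217 CPM did not overlap (adjusted p = 0.0526), and the change was smaller than in WT (difference log2 -2.22, adjusted p = 0.00592). Both KO changes were called without WT Spg replicate 2, and that of Ldhc also without WT Spg replicate 3. Adam2, a sperm surface protein, rose from a mean of 0.502 to 5.58 CPM (log2 3.47, SE 0.70, adjusted p = 0.00825), against 1030.3 CPM in WT Spc. That single call was lost in at least 1 fit that left out a library, in which the count for this list ran from 0 to 3.

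Spermatid genes were near 0 in KO. Of 22 listed genes 17 could be tested, as 5 were absent from 1 of the joined tables. Of the 17, 0 were called in KO (edgeR; 4 higher at an unadjusted p under 0.05, 1 by DESeq2) and all 17 tested rose in WT. As 2.9% of all genes were called in KO, 0 of 17 is near that share, while 29.1% of all genes rose in WT. Tnp1, a transition protein that replaces histones, measured 0.240, 0.299 and 0.621 CPM in KO Spg and 0.142, 0.233, 1.70 and 0.143 CPM in KO Spc, and 77.8 ± 72.9 CPM in WT Spc. Prm1, a protamine, has no row in the Spg table, which leaves out genes with fewer than 2 counts in every library, and measured 0, 0, 1.98 and 0.0611 CPM in KO Spc. Replicate 3 held the highest level of both in KO Spc.

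Starts were counted apart from rises. A gene started in a genotype when it was called higher in Spc, with a mean under 1 CPM in Spg and of at least 5 CPM in Spc. In WT 946 genes started and in KO 267, and 13 genes started in both (1.37% of the WT set and 4.87% of the KO set). Of the 946 genes 22 were called higher in KO (2.33%, beside 2.87% of all genes), and 831 (87.8%) stayed under a mean of 1 CPM in KO Spc. The change was called smaller in KO for 408 of the 946 (43.1%) and larger for 1, a description only, since these genes were chosen for their rise in the same WT libraries. With genes absent from 1 table entered as 0, 1086 genes started in WT and 19 of them were called higher in KO. None of the 22 was a member of a meiotic list. Only 14 of the 946 WT starts were, all of them spermatid genes, so this count says little about meiotic genes. The 5 of the 13 shared starts with the highest KO Spc level were Cyp17a1, a steroid hydroxylase of Leydig cells, S1pr3, Lrrc17, Slc1a3 and B3gnt9. S1pr3, a receptor of sphingosine phosphate, went from 0.531, 0.687 and 1.03 to 58.3, 9.44, 6.18 and 48.7 CPM, and Slc1a3, a glutamate transporter, from 0.240, 0.123 and 0.248 to 28.6, 5.34, 2.67 and 25.3 CPM. Both were lowest in KO Spc replicate 3, and no KO group overlapped. With Spc replicates 1 and 4 summed the calls of all but S1pr3 were lost. The calls of all 5 were lost without KO Spg replicate 2 or 3, those of all but Lrrc17 without KO Spg replicate 1, those of all but S1pr3 without KO Spc replicate 1 or 4, those of Cyp17a1 and B3gnt9 without WT Spg replicate 1, that of B3gnt9 without WT Spg replicate 2 or 3 and that of Cyp17a1 without WT Spc replicate 2. Without 1 library the count of 22 ran from 1 (KO Spg replicate 3) to 41 (WT Spg replicate 2), and it was 4 and 2 without KO Spg replicates 1 and 2, 8 and 7 without KO Spc replicates 1 and 4, 10 and 14 without WT Spg replicates 1 and 3, and 14 without WT Spc replicate 1 or 4.

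The 5 highest WT Spc levels among starts that stayed under 1 CPM in KO Spc belonged to 4930449C09Rik, Prm2, Toporsl, Spata20 and Tnp2. Spata20 had 0.606, 0.448, 0.801 and 0.0407 CPM in KO Spc and 168 ± 92.5 CPM in WT Spc (difference log2 -8.47, adjusted p = 0.000185). Prm2, the other protamine, had 184 ± 202 CPM in WT Spc, and its KO counts were 5 in Spg and 79 in Spc, all 79 in replicate 3. 4930449C09Rik had no count in KO Spg and 0.809, 0, 0.0953 and 0.896 CPM in KO Spc, with 197 ± 137 CPM in WT Spc.

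**Figure D2:**
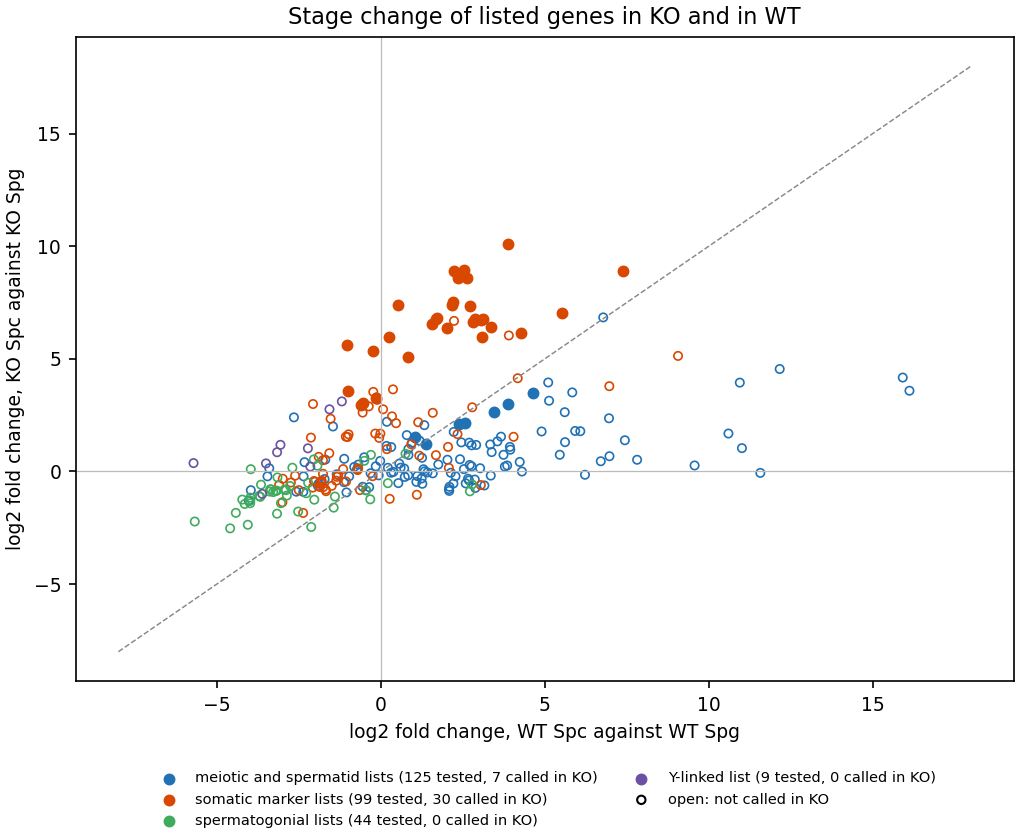
Each point is a listed gene, with the log2 fold change of WT Spc against WT Spg on the x axis and that of KO Spc against KO Spg on the y axis; the dashed line marks equal changes and filled points were called in KO. Meiotic and spermatid genes spread to the right with 7 of 125 filled, and 30 of 99 somatic markers are filled.

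The motifs searched in the printed promoters were counted in the whole promoter table as well, over the 250 bases upstream of the start, and the shares are given in the order MYB, STRA8-MEIOSIN, E2F, E-box, NRF1, CRE and RFX. Of all 32851 promoters in the table, 10.6%, 22.3%, 9.75%, 6.02%, 3.02%, 6.47% and 3.66% held these motifs. Of the 18557 promoters of genes that were tested here, the shares were 10.2%, 22.8%, 15%, 7.60%, 4.49%, 8.45% and 3.54%. For the 176 genes that rose in both genotypes with no called difference (150 promoters of 122 genes) they were 16.7%, 28.0%, 12%, 8.67%, 4.00%, 8.0% and 2.00%. Their MYB, STRA8-MEIOSIN and E-box shares lay above both of these backgrounds, their E2F, NRF1 and CRE shares above that of all promoters and below that of the genes tested, and their RFX share below both. For the 831 WT starts that stayed under 1 CPM in KO Spc (619 promoters of 492 genes) the shares were 15.7%, 27.1%, 3.23%, 4.52%, 2.75%, 4.68% and 6.62%, with RFX, MYB and STRA8-MEIOSIN above and the other 4 below both backgrounds. For the 355 genes that rose in KO with a change called larger than in WT (318 promoters of 253 genes) they were 13.2%, 21.1%, 11%, 2.83%, 1.57%, 7.55% and 2.2%. Genes with no promoter in the table are not covered by these shares, which are counts of letters in a window with no test.

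X-linked genes had a median stage change near 0 in KO and fell widely in WT. Among genes with a mean of at least 1 CPM, 666 genes of the X chromosome had a median log2 change of 0.16 in KO and -2.65 in WT, and 16187 autosomal genes had medians of -0.01 and 0.22. In KO 20 X genes rose (3.0%, beside 3.49% of all genes at this level), and in WT 24 rose (3.60%, beside 34.9%) and 480 fell (72.1%, beside 27.5%). The difference was called more positive for 342 X genes (51.4%, beside 13.8% of all genes at this level). X-linked genes held 3.06, 2.91 and 2.72 percent of gene counts in KO Spg and 3.57, 2.80, 3.20 and 3.62 percent in KO Spc, replicate 2 being the lowest. These groups overlapped (two-sided exact permutation p = 0.171, where the smallest possible is 0.0571), and WT Spc held 0.148, 0.174, 0.625 and 0.134 percent.

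Zfy1, a zinc finger gene of the Y chromosome whose silencing marks a normal pachytene, measured 13.7, 15.1 and 8.62 CPM in KO Spg and 96.5, 37.1, 91.5 and 113 CPM in KO Spc (log2 2.76, SE 0.59, adjusted p = 0.0119). Zfy2 measured 15.5, 15.3 and 7.86 and 127, 44.1, 125 and 149 CPM (log2 3.11, adjusted p = 0.0159). Neither was called, although the groups did not overlap, and both were called without KO Spc replicate 2 or WT Spc replicate 3. Against WT, where Zfy1 and Zfy2 ended at 3.34 ± 3.13 and 3.34 ± 3.65 CPM, both differences were called (log2 4.33 and 4.30). Of 9 tested genes of the Y list 0 were called in KO (edgeR; 3 higher and 1 lower at an unadjusted p under 0.05, 2 higher by DESeq2), 7 fell in WT, and the difference was called more positive for all 9 tested. The shares over all genes were 2.9% called in KO, which 0 of 9 is near, 23.1% lower in WT and 10.9% with a more positive difference. Slc7a3, an X-linked carrier of basic amino acids chosen after its values were seen, rose from 1.70, 3.87 and 1.65 to 20.6, 13.7, 19.8 and 24.3 CPM (log2 3.03, adjusted p = 0.00105) and fell in WT; its KO call was lost without KO Spg replicate 1 or 3 (adjusted p at most 0.0151).

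**Figure D3:**
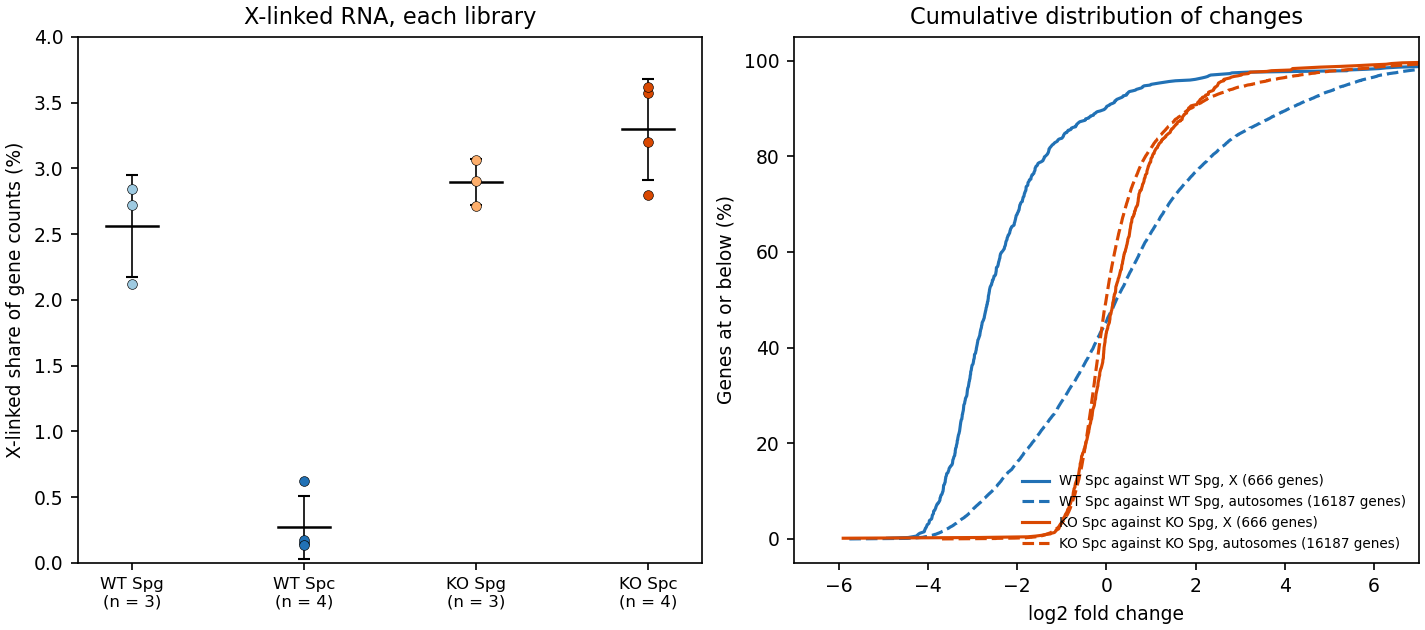
Left, the X-linked share of gene counts in percent per library, with mean and SD (points are libraries). Right, the cumulative percent of genes against the log2 fold change for X and autosomal genes; the KO X curve runs close to the KO autosomal curve (medians 0.16 and -0.01), and the WT X curve lies far to the left (median -2.65).

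Somatic genes appeared in KO Spc. Of 99 tested markers of somatic cells, 30 rose in KO (30.3%, beside 2.87% of all genes) and 21 rose in WT (21.2%, beside 29.1%). The change was called larger in KO for 22, beside 10.9% of all genes. DESeq2 called 42 higher, and with Spc replicates 1 and 4 summed the count was 23, with no Leydig gene among them. It was 16, 18 and 12 without KO Spg replicate 1, 2 and 3, and 24 to 35 without any 1 of the KO Spc or WT libraries. They came from stromal cells (10 of 10), macrophages (12 of 17), Leydig cells (4 of 11), peritubular myoid cells (2 of 8), Sertoli cells (1 of 20) and endothelial cells (1 of 10). Lymphocyte (0 of 6 tested), erythroid (0 of 5) and muscle and nerve markers (0 of 12) gave no call by edgeR. In lists this small that is near the share of all genes, and it does not show that such cells were absent. Their median log2 changes in KO were -0.35, 1.68 and -0.31. At an unadjusted p under 0.05 the lymphocyte list had 1 gene lower, the erythroid list 1 higher and the muscle and nerve list 3 higher and 2 lower, and DESeq2 called 1 gene, of the last list, higher. The Spg sort excluded cells with β2-microglobulin and the Spc sort did not, and the part of that difference in these results was not tested.

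Stromal markers rose the most of these lists, with a median log2 change of 8.60. Their summed level was 34.9, 47.3 and 45.5 CPM in KO Spg and 8423, 6571, 722 and 7302 CPM in KO Spc, and 73.9 to 93.0 CPM in WT Spc. Replicate 3 of KO Spc lay far below the other KO Spc libraries and still exceeded every KO Spg and WT library. Dcn (chr10:97479609-97518143), the matrix proteoglycan decorin, measured 0.411, 1.07 and 1.29 CPM in KO Spg and 1808, 466, 191 and 1575 CPM in KO Spc (log2 10.09, SE 1.00, adjusted p = 0.000324). Col1a1, collagen type I, measured 18.2, 20.5 and 26.8 and 1404, 1613, 101 and 1146 CPM (log2 5.61, SE 0.70, adjusted p = 0.000577). Both differed from the WT change by test (log2 6.20 and 6.65), WT Spc holding 15.6 ± 2.07 and 12.5 ± 0.880 CPM. Tcf21, a factor of gonadal mesenchyme, rose to a mean of 64.6 CPM (log2 8.61, adjusted p = 0.000577). Fits that left out 1 library called 7 to 10 of the 10 genes, and Dcn and Col1a1 in each of them.

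Macrophage markers rose in 12 of 17 cases in KO, with a median log2 change of 6.64. In WT 7 of the 17 rose, with a median of 2.17, and the change was called larger in KO for 7. The summed level was 17.5, 17.9 and 12 CPM in KO Spg and 199, 296, 88.9 and 192 CPM in KO Spc, where replicate 2 was the highest and replicate 3 the lowest. WT sums ran from 8.99 to 14.6 CPM in Spg and from 29.6 to 90.1 CPM in Spc. Csf1r, the receptor that macrophages need, went from 0.103, 0.211 and 0.302 to 22.3, 42.5, 8.05 and 21.2 CPM (log2 6.82, SE 0.89, adjusted p = 0.000643). C1qa, a complement component of resident macrophages, went from 0, 0.176 and 0.0177 to 10.4, 22.3, 5.13 and 11.6 CPM (log2 7.53, adjusted p = 0.000643), and Cd74, the invariant chain, from 0.0514, 0.264 and 0.266 to 24.0, 18.5, 12.4 and 23.0 CPM (log2 6.64, adjusted p = 0.000618). All 3 were called in every fit that left out 1 library, and the list count ran from 5 to 14.

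Leydig markers differed between the KO Spc libraries. Among Leydig genes Cyp11a1, Cyp17a1, Insl3 and Fabp3 rose, and the sums were 167, 134 and 120.2 CPM in KO Spg and 692, 161, 158 and 577 CPM in KO Spc. Cyp11a1, the first enzyme of steroid synthesis, measured 0.103, 0.898 and 0.124 CPM in KO Spg and 56.9, 10.3, 15.4 and 47.6 CPM in KO Spc (log2 6.43, SE 1.12, adjusted p = 0.00324), and Insl3, the peptide hormone of testis descent, 0.0171, 0.687 and 0.0355 and 60.2, 7.61, 11.9 and 49.7 CPM (log2 7.02, adjusted p = 0.00367). Replicates 1 and 4 were high and replicates 2 and 3 low for both. Cyp11a1, Cyp17a1 and Insl3 also rose in WT, to 4.24 ± 1.85, 5.15 ± 1.55 and 2.72 ± 0.382 CPM in WT Spc, and their differences were not called (adjusted p = 0.0613, 0.296 and 0.483), whereas Fabp3 was not called in WT and its difference was (log2 3.61, adjusted p = 0.00408). The summed level of the 8 myoid markers was 71.1, 63.5 and 50.9 CPM in KO Spg and 256, 264, 68.3 and 242 CPM in KO Spc, low in replicate 3 alone. Des, desmin, rose from a mean of 0.715 to 29.4 CPM (log2 5.35, adjusted p = 0.000867), and Lmod1, leiomodin, from 0.150 to 14.4 CPM (log2 6.56, adjusted p = 0.00170). The smooth muscle genes Acta2 (12, 86.1, 4.8 and 14.6 CPM in KO Spc after 5.21, 3.71 and 2.96) and Myh11 (7.40, 45.3, 3.09 and 9.17 after 1.16, 1.99 and 1.05) were highest in replicate 2, and neither was called (adjusted p = 0.0432 and 0.0247). The calls of Cyp11a1 and Insl3 were lost without KO Spg replicate 1 or 3, and that of Insl3 also without KO Spc replicate 1 or 4 (adjusted p at most 0.0312 and 0.0312); Myh11 was called without KO Spc replicate 3, and the counts of the Leydig and myoid lists ran from 0 to 6 and from 0 to 3, the myoid count being 0 without KO Spg replicate 2 or 3 and 1 without KO Spg replicate 1.

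Sertoli markers gave 1 call of 20. Their sum was 2366, 951 and 729 CPM in KO Spg and 1822, 729.7, 523 and 1698 CPM in KO Spc, and these ranges overlapped. Sox9, the factor that makes Sertoli cells, measured 51.5, 16.8 and 18.4 and 26.3, 9.26, 6.25 and 23.3 CPM (log2 -0.83, adjusted p = 0.433). Trf, transferrin, was the single member that rose (log2 3.55, adjusted p = 0.00278). Among endothelial markers Cdh5, an adhesion protein of vessel walls, rose from 2.79, 2.24 and 1.72 to 135, 39.8, 11.7 and 122 CPM (log2 5.10, adjusted p = 0.00105), whereas Pecam1 was high only in KO Spc replicate 2 (1.62, 16, 1.32 and 1.16 CPM, adjusted p = 0.128). The Cdh5 call was lost without KO Spg replicate 2 or 3 (adjusted p at most 0.0144), and that of Trf in at least 1 fit that left out a library.

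**Figure D4:**
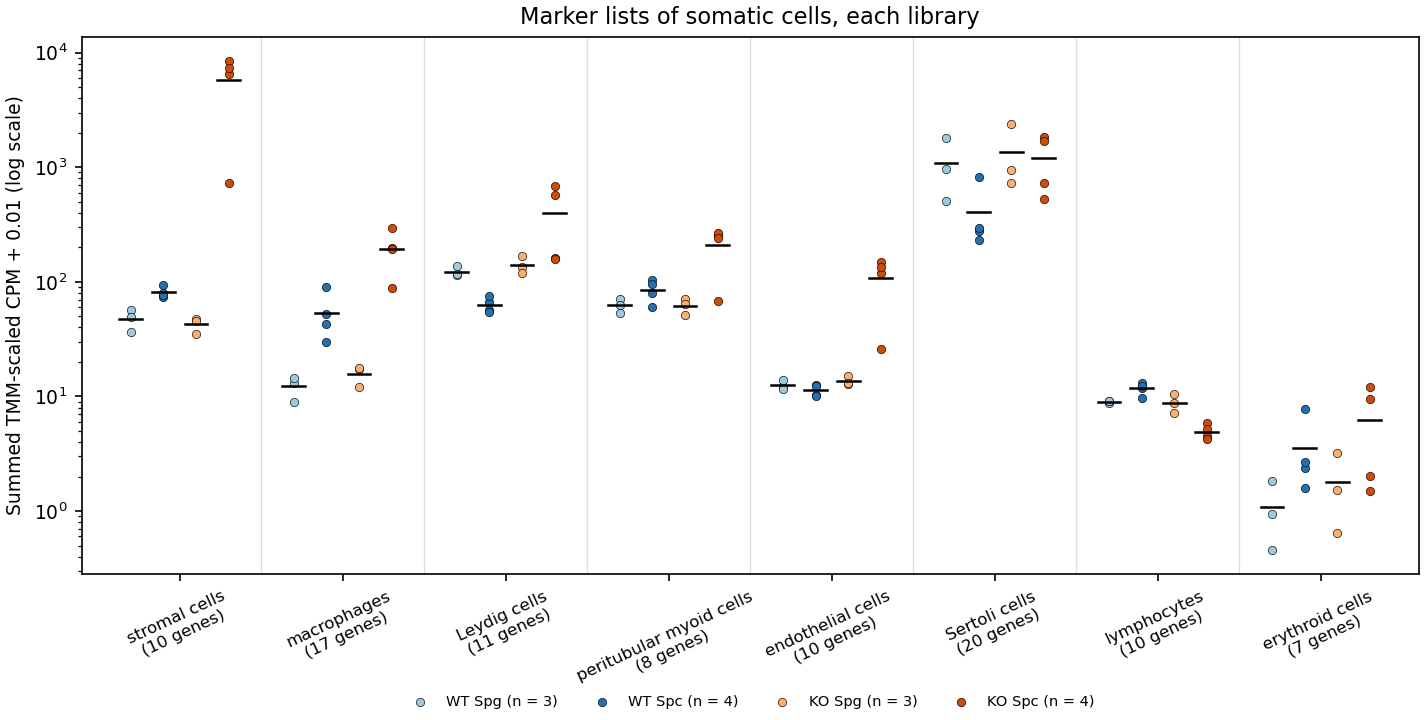
Each point is the summed TMM-scaled CPM plus 0.01 (log axis) of a marker list in 1 library, with bars at group means, for 8 somatic cell types. KO Spc stands above all other groups for stromal cells, with replicate 3 lowest at 721.9 CPM, and the macrophage sums of KO Spc exceed those of WT Spc except for replicate 3, while Sertoli sums overlap.

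The 8 called rises with the largest fitted log2 change, named by rule, were Hgf, Fgl2, Serpina3n, Avpr1a, Dcn, Srpx2, C7 and Fcgr2b. Hgf and Serpina3n had no count in KO Spg, so that their fitted change and their place among the 8 depend on the prior count. Hgf, hepatocyte growth factor, reached 13.6, 1.33, 0.896 and 10.9 CPM in KO Spc, at least 127-fold higher against a floor of 3 counts per library. Serpina3n, a protease inhibitor, reached 4.85, 6.77, 0.419 and 3.87 CPM in KO Spc, at least 75.8-fold higher. Replicate 3 was the lowest KO Spc library for both. Fgl2, a fibrinogen-like protein, measured 0.274, 0.176 and 0.0887 and 550.2, 116, 48.8 and 477 CPM (log2 10.67, SE 1.03, adjusted p = 0.000324). Avpr1a, a vasopressin receptor, had 5 counts over the KO Spg libraries, a ratio of 1306 (95% counting interval 559 to 4022), and Fcgr2b, an inhibitory Fc receptor, 6 counts, a ratio of 851 (95% counting interval 391 to 2320.1). Srpx2 had 1 count over the KO Spg libraries and 15, 5.02, 0.801 and 11.7 CPM in KO Spc, a ratio of 1357 (95% counting interval 243 to 53635). C7, a complement component, had 2 counts, a ratio of 1007 (95% counting interval 279 to 8324), and also rose in WT (41.4 ± 21.8 CPM in WT Spc against 17.7, 12.3, 2.15 and 15.3 in KO Spc), with no called difference. Fgl2 and Fcgr2b were called in every fit that left out 1 library. The calls of Hgf and Serpina3n were lost without any 1 KO Spg library, those of Srpx2 and C7 without KO Spg replicate 2 or 3 and that of Avpr1a without replicate 3 (adjusted p at most 0.0194, 0.0144, 0.0132, 0.0130 and 0.0111).

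The 267 genes that started in KO included 19 somatic markers, 1 gene of the meiotic lists (Adam2) and 1 member of the p53 list (Trp63). Their WT Spc mean was under 1 CPM for 181 (67.8%), and the change was called larger in KO for 171 (64.0%); both follow in part from the choice of the genes by their rise in the same KO libraries. After Dcn, which heads the starts of KO alone, came Sparcl1, Adamts5, Fgl2 and Igf1. Sparcl1, a matrix protein, measured 0.445, 1.78 and 0.550 CPM in KO Spg and 912, 187, 95.6 and 798 CPM in KO Spc (log2 9.07, adjusted p = 0.000575). Adamts5, a matrix protease, measured 0.582, 0.458 and 0.372 and 734, 99.6, 49.0 and 644 CPM, and Igf1, a growth factor, 0.582, 0.511 and 0.426 and 449, 114, 32.4 and 395 CPM. These were high in KO Spc replicates 1 and 4 and lowest in replicate 3, no group overlapped, and each was called in every fit that left out 1 library.

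That order of libraries recurred over the whole set. Of the 355 genes that rose in KO with a change called larger than in WT, 340 were lowest in KO Spc replicate 3, and their median level relative to the KO Spc mean was 1.73, 0.556, 0.199 and 1.48 in replicates 1 to 4. The 176 genes that rose in both genotypes with no called difference showed 1.23, 0.588, 0.601 and 1.30, with 81 lowest in replicate 2 and 87 in replicate 3. The first set held 19 somatic and 0 meiotic list members, the second 7 somatic and 7 meiotic ones. Since the sets were cut from this contrast, these values are a description, and the part of single libraries in it was not tested beyond the fits that left each one out.

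The largest called differences from WT among genes with a mean of at least 100 counts over the 14 libraries were named by rule as well. Serpina3n, which lay under that limit, had a larger fitted difference (log2 9.28). Inhba, a subunit of activin, rose in KO from 0, 0.0704 and 0 to 38.2, 2.92, 2.21 and 32.2 CPM, a ratio of 778 (95% counting interval 304 to 2857) over 4 counts in KO Spg, and was at 0.130 ± 0.0753 CPM in WT Spc (difference log2 8.27, adjusted p = 0.00628). Ifi207, an interferon-inducible gene, and Hs3st3a1, a heparan sulfate sulfotransferase, reached 11.3, 7.06, 2.14 and 7.86 and 12.3, 1.72, 1.03 and 11.4 CPM in KO Spc (differences log2 7.94 and 7.80). Ifi207 had 2 counts over the KO Spg libraries, a ratio of 602 (95% counting interval 166 to 4974). Gm47302 reached 29.6, 39.5, 2.52 and 27.4 CPM. Cdh19, a cadherin, was already at 2.88, 2.96 and 2.08 CPM in KO Spg, against 0.136 ± 0.152 in WT Spg, and its KO change was not called (adjusted p = 0.0997). The 5 most negative differences, of Fam71b, Theg, Zp3r, Llcfc1 and Cpa5, belonged to genes with at most 0.176 CPM in any KO library and 11.4 to 30.03 CPM in WT Spc on average. The KO calls of Inhba and Hs3st3a1 were lost without any 1 KO Spg library (adjusted p at most 0.0218 and 0.0528), and that of Hs3st3a1 also with Spc replicates 1 and 4 summed and without WT Spg replicate 1 or 3, KO Spc replicate 1 or 4 or WT Spc replicate 1, 2 or 3.

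Falls were few and mostly small. H2-Q10, a secreted class I molecule, fell from 17.9, 3.61 and 3.41 to 0.667, 0.932, 0.419 and 0.876 CPM (log2 -3.52, SE 0.70, adjusted p = 0.00767), where KO Spg replicate 1 stood far above the others. Tmem132e fell from 12.3, 4.89 and 12.5 to 1.01, 2.35, 2.27 and 0.754 CPM (log2 -2.63, adjusted p = 0.00526). Rfwd3, a ubiquitin ligase of DNA repair, fell from 395, 365 and 359.8 to 167, 202, 232 and 165 CPM (log2 -0.96, SE 0.17, adjusted p = 0.00302). Tbc1d14, Txndc16, Dhx9, Fbxl19 and Lars fell by 0.74 to 0.91 on the log2 scale. No group of these 8 genes overlapped, and 5 of the 9 falling genes also fell in WT. Each of the 8 calls was lost without KO Spg replicate 1 or 3 and without KO Spc replicate 1 or 4, and the count of 9 ran from 0 (without any of KO Spg replicates 1 and 3 and KO Spc replicates 1 and 4) to 45 (without KO Spc replicate 3). All but Tmem132e were also lost without KO Spg replicate 2. Further losses came without KO Spc replicate 2 (H2-Q10, Tbc1d14) or 3 (H2-Q10), any WT Spg library (Tbc1d14), WT Spc replicate 1 (H2-Q10, Txndc16, Dhx9, Fbxl19, Lars), 2 (H2-Q10, Txndc16, Fbxl19, Lars) or 4 (Dhx9, Fbxl19, Lars). For H2-Q10 the log2 change was -2.33 without KO Spg replicate 1.

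The young L1 subfamilies L1Md_A, L1Md_T and L1Md_F3 rose in KO Spc, and L1Md_Gf, L1Md_F and L1Md_F2 were not called. Of 978 TE subfamilies tested 12 rose (1.23%) and 0 fell (edgeR; 240 higher and 3 lower at an unadjusted p under 0.05, 77 higher and 0 lower by DESeq2). The unadjusted calls were 24.8% of subfamilies (24.5% higher and 0.307% lower), 19.9% had no overlap between the KO groups, and for 17 (1.74%) the change was called more positive than in WT. Reads of near-identical copies were shared among the places they match, so that related subfamilies are not independent. L1Md_A measured 1956, 2244 and 1149.9 CPM in KO Spg and 14478, 5066, 13188 and 16408 CPM in KO Spc (log2 2.78, SE 0.42, adjusted p = 0.00132). L1Md_T measured 5009, 3950.3 and 1988 and 17755, 7100.1, 15023 and 20073 CPM (log2 2.04, SE 0.39, adjusted p = 0.00570). No KO group overlapped, KO Spc replicate 2 was the lowest, and WT Spc held 212 ± 99.2 and 296 ± 115 CPM. L1Md_F3, L1_Mm, LTRIS_Mm, RLTR10B and RLTR13C3 rose by log2 1.37 to 2.63, whereas L1Md_Gf, L1Md_F and L1Md_F2 missed the threshold (adjusted p = 0.0207, 0.0296 and 0.0165), the last being called without KO Spc replicate 2 or WT Spc replicate 3.

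Of the ERVK subfamilies named here, RLTR10B and RLTR13C3 rose, as given above, and the listed IAP, MMERVK10C and RLTR10C subfamilies were not called. IAPEz-int, the internal part of IAP, measured 1497, 1235 and 1225 CPM in KO Spg and 1771, 1086, 2559 and 1917 CPM in KO Spc, ranges that overlapped (log2 0.48, SE 0.30, adjusted p = 0.352). MMERVK10C-int had log2 0.53 (adjusted p = 0.552) and RLTR10C log2 -0.48 (adjusted p = 0.396). The share of all counts from TEs was 3.80, 5.44 and 3.60 percent in KO Spg and 7.85, 5.74, 8.67 and 8.31 percent in KO Spc, a difference of 3.36 percentage points with no overlap (two-sided exact permutation p = 0.0571, the smallest possible, and 0.0857 adjusted over 6 shares tested). L1 elements made up 1.11 ± 0.312 percent and 3.91 ± 1.2 percent of counts (exact permutation p = 0.0571, n = 3 and 4), and ERVK elements 0.818 ± 0.144 and 1.11 ± 0.213 percent (exact permutation p = 0.114). Without 1 library the count of 12 subfamilies ran from 0 (KO Spg replicate 2 or 3) to 25 (KO Spc replicate 2), with 1 without KO Spg replicate 1, 3 without KO Spc replicate 1 or 4, 7 without WT Spg replicate 1 or 3 and 20 without WT Spc replicate 3. With Spc replicates 1 and 4 summed 3 subfamilies were called, L1Md_A, L1_Mm and LTRIS_Mm. The calls of L1Md_A and L1Md_T were lost without any 1 KO Spg library (adjusted p at most 0.0161 and 0.0481), and that of L1Md_T also without WT Spg replicate 1 or KO Spc replicate 1 or 4. L1_Mm, RLTR10B, RLTR13C3 and L1Md_F3 were likewise lost without any 1 KO Spg library, and LTRIS_Mm without KO Spg replicate 2 or 3. RLTR10B, RLTR13C3 and L1Md_F3 were also lost without KO Spc replicate 1 or 4, RLTR13C3 and L1Md_F3 without KO Spc replicate 3 and WT Spg replicate 3, and RLTR13C3 without WT Spg replicate 1 or 2 or WT Spc replicate 1 or 4.

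**Figure D5:**
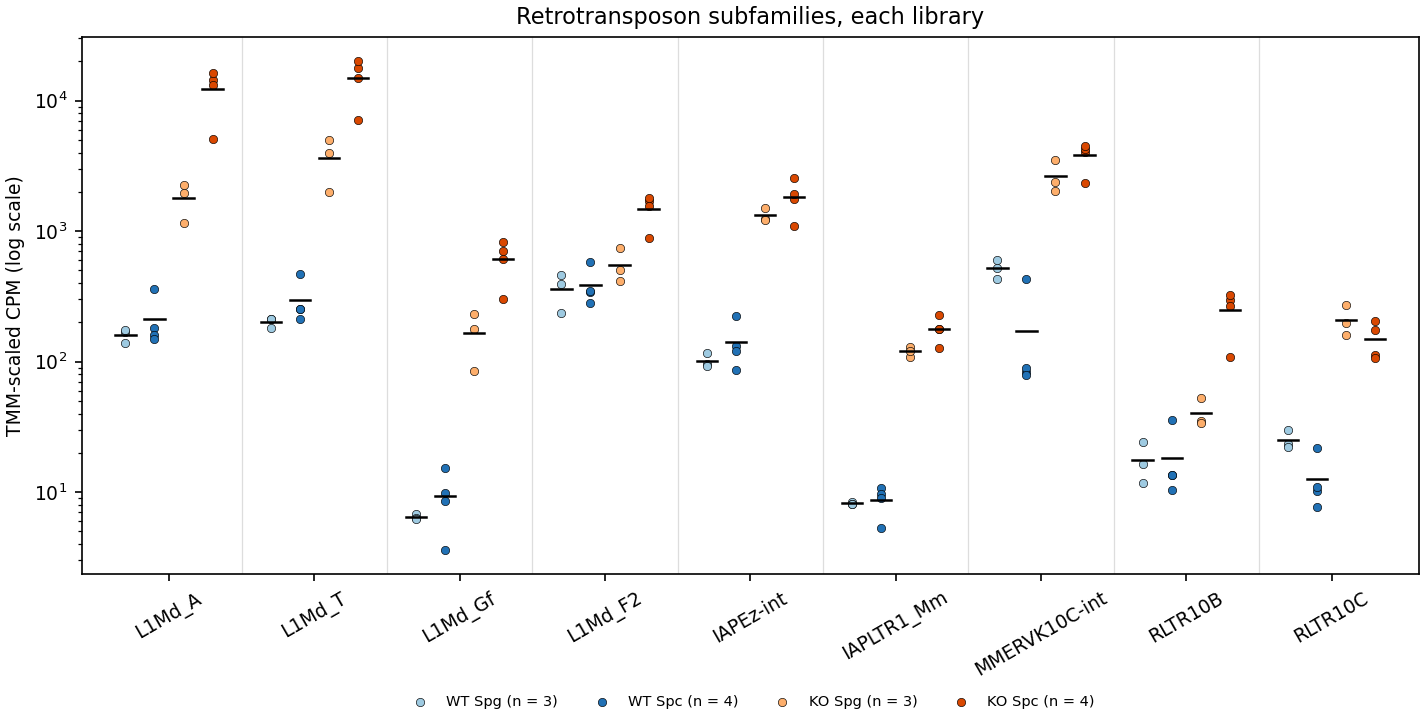
Each point is 1 library, with TMM-scaled CPM on a log axis for 9 retrotransposon subfamilies and bars at group means. KO Spg and KO Spc stand above every WT library except for L1Md_F2 and RLTR10B, where KO Spg overlaps WT; L1 and RLTR10B points step up from KO Spg to KO Spc, and those of IAPEz-int, MMERVK10C-int and RLTR10C overlap.

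Genes of the mitotic cycle, p53 and interferon completed the lists. Of 20 replication and mitotic genes 0 were called in KO (edgeR; 1 higher and 5 lower at an unadjusted p under 0.05, 0 by DESeq2) and 11 fell in WT. With 2.9% of all genes called in KO, 0 of 20 is near that share, and 23.1% of all genes fell in WT. Mcm5, part of the replicative helicase, measured 273, 362 and 401 CPM in KO Spg and 149.5, 279, 218 and 158 CPM in KO Spc (log2 -0.78, adjusted p = 0.279), and Mki67, a mark of cycling cells, 417, 602 and 428 and 684, 483, 549 and 710.4 CPM. Mki67 fell in WT to 166 ± 63.7 CPM (difference log2 2.07, adjusted p = 0.00230). Among 18 genes of the p53 list, which holds Trp63 and Trp73 beside p53 targets, Trp63 alone was called by edgeR (log2 3.10, adjusted p = 0.00164). No p53 target was called. At an unadjusted p under 0.05, 5 genes of the list were higher and 1 lower, and DESeq2 called 3 higher. Cdkn1a, the p21 inhibitor of cyclin kinases, measured 5.39, 11.6 and 13.6 CPM in KO Spg and 82.2, 10.6, 15.2 and 68.5 CPM in KO Spc, high in replicates 1 and 4 and overlapping KO Spg in replicate 2 (adjusted p = 0.0717). Of 16 interferon genes 6 were higher and 0 lower at an unadjusted p under 0.05, DESeq2 called 5 higher, and the list's median log2 change was 1.44 in KO and -1.74 in WT. Over all 24340 genes 17.8% were higher and 6.57% lower at that p, and DESeq2 called 2093 higher. In WT 1 interferon gene rose and 8 fell, beside 29.1% and 23.1% of all genes. The difference was called more positive in KO for 6, beside 10.9% of all genes. By edgeR Ifit3 alone was called in KO (adjusted p = 0.000573), at a mean of 0.00587 CPM in KO Spg and 4.21 CPM in KO Spc. Isg15 measured 0.223, 0.0528 and 0.213 and 1.44, 1.5, 0.438 and 0.957 CPM (adjusted p = 0.0411). The p53 count ran from 0 to 2 and the interferon count from 1 to 3 when 1 library was left out.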

How the data were processed

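RNA with poly(A) tails from sorted Spg and Spc of Dnmt3C KO/KO and wild-type mice was sequenced in paired ends with a stranded kit. The authors trimmed reads with cutadapt 4.0, aligned them to GRCm38 with STAR 2.7.3a and the GENCODE M25 annotation, keeping reads with many alignments, and made the deposited raw counts, 1 row a gene or TE subfamily, with TEtranscripts in its multi-mapping mode; DESeq2 1.44.0 was their test. Counts of near-identical copies are therefore estimates of shares, and paralogs can split reads. One Spg library per genotype was left out by the authors for RNA quality, and the Spg columns numbered 4 belong to the samples titled replicate 3, which is the number used here. The tables hold rows with at least 2 counts in 1 library. Tables of the authors with TPM of single TE copies were not used here.

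The Spg and Spc tables were joined on the identifier, which left 31111 genes and 1080 TE subfamilies in both. The 5777 genes listed only for Spc and the 1556 listed only for Spg were left out of the main test and entered as 0 in an alternative. After a filter on low counts (filterByExpr of edgeR), 24340 genes and 978 subfamilies were fitted in edgeR 4.0.16 (R 4.3.3, limma 3.58.1) with TMM factors, 1 mean per group and all 14 libraries, so that the groups share 1 estimate of the spread, and tested by quasi-likelihood with Benjamini-Hochberg adjustment, called under 0.01. KO Spc against KO Spg, WT Spc against WT Spg and the difference of both were tested; the first and the last share the KO libraries. For shares of counts the exact permutation test, two-sided, ran over 4 and 3 libraries. Counting error was small (95% Wilson half-width of a share at most 0.00823 percentage points), and intervals and floors cover counting error only, as PCR copies of a read are not independent molecules. The study calls its replicates biological and speaks of 3 in its charts of Spg and Spc, whereas 4 Spc libraries per genotype were deposited and used; the labels tie none to an animal, and p-values measure the spread between these libraries.

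Spg and Spc replicates of 1 number did not deviate together (r of 0.23, -0.04 and 0.16 in KO), so no block entered the main test. Genes named were the 63 key members of 25 marker lists (347 entries), and the 8 largest called rises and falls with no overlap and a mean of at least 100 counts over the KO libraries. Added were the 5 largest called differences in either direction with a mean of at least 100 counts over all 14 libraries. The 5 highest starts of each class, the 5 largest TE rises with the 13 young subfamilies listed, and Dnmt3c completed the set. Slc7a3 and list members outside the key set were named after their values were seen, and some named genes are not reported here. The comparison, its lists and its promoters were chosen with earlier results of these data known. Gene positions are those of GENCODE M21 on GRCm38, in which 99.6% of gene identifiers were found, and promoters are from RefSeq on GRCm38.p6. Alternatives were other scalings, DESeq2 1.42.0, other filters and thresholds, the KO libraries alone, Spc replicates 1 and 4 summed, and leaving out each library. Tables and figures were made in Python 3.11.15 with pandas 2.3.3, NumPy 2.4.6, SciPy 1.17.1 and matplotlib 3.10.9.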

Additional observations from a re-analysis of the deposited data

Results flagged for a closer look

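Within the KO Spc group 14 of 154 groups of 4 libraries tested held 1 library far from the other 3. Chance would flag about 1 in 20 groups if libraries and groups were independent. That was not tested, replicates 1 and 4 were much alike (r = 0.987), and many of the groups are related genes. Replicate 3 was high for the spermatid genes Prm1 (1.98 CPM), Prm2 (1.51 CPM), Tnp1 (1.70 CPM), Tnp2 (0.972 CPM), Acrv1 (0.153 CPM) and Fam71b (0.0191 CPM), all of them low, and for Zbtb16 of spermatogonia (51.7 CPM) and the helicase Dhx9 (347 CPM), and low for the summed peritubular myoid markers (68.3 CPM). Replicate 2 was high for the smooth muscle genes Acta2 (86.1 CPM) and Myh11 (45.3 CPM) and for the endothelial gene Pecam1 (16 CPM), and low for 1700102P08Rik (18.9 CPM) and LTRIS_Mm (21 CPM). The part of these libraries in the group means was not tested beyond the fits that left out each library.

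For 44 of 124 named features tested the stage change differed between KO and WT by edgeR's test of the difference, beside 25.5% of all genes. Some were named for a large called difference or for a start in 1 genotype. Their place here follows from that choice. Values are given as log2 change in KO minus log2 change in WT. Negative differences were found for genes of the meiotic and piRNA lists, Stag3 (-1.55), Mlh3 (-1.67), Tcfl5 (-3.23), Ccna1 (-6.25), Piwil1 (-3.59), Tdrd5 (-2.54), Hspa2 (-2.22) and Tnp1 (-7.30), for Id4 (-3.36) and Dmrtb1 (-3.60) of spermatogonia, and for Mdm2 (-1.17) and Tbc1d14 (-1.11). They were most negative for Fam71b (-16.00), Theg (-13.37), Zp3r (-13.21), Llcfc1 (-12.75), Cpa5 (-12.34) and Spata20 (-8.47). Of these 6, all but Spata20 had no count in WT Spg, and their fitted values depend on the prior count and are no bound. Positive differences were found for the somatic markers Col1a1 (6.65), Dcn (6.20), Cdh5 (4.28), Csf1r (5.11), C1qa (5.34), Cd74 (3.82) and Igf1 (6.37), and for Fgl2 (6.77), Serpina3n (9.28), Inhba (8.27), Ifi207 (7.94), Hs3st3a1 (7.80), Cdh19 (7.48), Gm47302 (7.29), Sparcl1 (6.34) and Adamts5 (6.33), where Serpina3n had no count in KO Spg and its value is likewise no bound. The sex-linked genes Zfy1 (4.33), Zfy2 (4.30) and Slc7a3 (4.79), the cell cycle and p53 genes Mki67 (2.07) and Cdkn1a (3.67), Prdm9 (2.89) and the retrotransposons L1Md_A (2.38), RLTR10B (2.56), L1_Mm (1.73) and RLTR13C3 (3.16) were also more positive in KO.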

How the results depend on the processing

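The number of genes called between KO Spg and KO Spc, 707, was 2337 by DESeq2, 2033 at an adjusted p under 0.05, 466 with the 7 KO libraries fitted alone, 332 with Spc replicates 1 and 4 summed, and 95 to 990 when 1 library was left out. DESeq2 and the summed fit shared 707 and 332 of these calls with the 707, and other scalings and filters gave 584 to 712. The 12 TE subfamilies became 77 by DESeq2, 66 at an adjusted p under 0.05, 5 with library totals, 5 with the KO libraries alone, 3 with replicates summed, and 0 to 25 without 1 library. The 6212 called differences became 9865 by DESeq2, 11129 (adjusted p under 0.05) and 3478 (summed), and 3718 to 8982 without 1 library. The 22 WT starts called higher in KO became 94 by DESeq2, 67 at an adjusted p under 0.05, 7 (summed), 42 with a limit of 2 CPM in Spg and 8 with a limit of 10 CPM in Spc, and 1 to 41 without 1 library. The TE share difference was 3.02 to 3.99 percentage points without 1 library. The causes were not tested.

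With the replicate number as a block, although the numbers did not pair the libraries, 224 genes, 0 TE subfamilies, 2723 differences and 4 starts were called by edgeR. A block with the Spg numbers of the column names, an alternative chosen after seeing the data, called 592 genes and 1 TE subfamily. It turned the sign of uncalled genes: Piwil2 to -0.0417, Tnp1 to -1.07, Acrv1 to -0.73, Zp3r to -0.15, Llcfc1 to -0.80 and Prm2 to -3.67 (log2). The first block gave Rhox5 -0.28, Hbb-bs -0.53, Theg 0.0227 and Spata20 0.37, and the summed fit Rhox5 -0.12 and Spata20 0.00880 (log2). Leaving out 1 library turned 13 uncalled genes, with log2 ranges of Piwil2 -0.070 to 0.23, Tdrd5 -0.0172 to 0.33, Tnp1 -1.20 to 0.98, Acrv1 -0.69 to 4.07, Wt1 -0.82 to 0.20, Cldn11 -0.86 to 0.0244, Rhox5 -0.19 to 0.54, Theg -0.79 to 0.0609, Zp3r -0.29 to 3.54, Llcfc1 -0.77 to 0.85, Cpa5 -1.21 to 2.67, Prm2 -3.60 to 4.998 and Spata20 -0.55 to 0.43. Of the other settings of named features 2914 kept direction and call, 324 lost the call and 58 gained it. Depth limits genes with few counts, such as those of the spermatid list in KO.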

Other observations

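The mitochondrial share of gene counts was 3.28 ± 0.461 percent in KO Spg and 4.68 ± 0.724 percent in KO Spc (SD, n = 3 and 4), without overlap. By exact permutation (two-sided) p = 0.0571, which no split of 7 libraries can beat, and p = 0.0857 adjusted over 6 shares tested.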
